A study of Sus scrofa with 6 samples.

Results

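The miR-200 family is a small set of microRNAs (miRNAs) of epithelial cells, and its entries were taken from the deposited table by name: miR-200a, miR-200b, miR-200c, miR-141 and miR-429 of pig, with or without an arm suffix. The rule matched 3 of the 1645 entries, miR-200b, miR-429 and miR-141, each listed once and without an arm, and 3 of the 358 entries that are known pig miRNAs. miR-200a and miR-200c were not analysed here. The rule reads names only. The other 1287 entries are predicted miRNAs named by number.

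In mammals the family comes from a pair of gene clusters, one holding miR-200b, miR-200a and miR-429 and the other miR-200c and miR-141. miR-200b and miR-429 share their seed, the stretch of a miRNA that pairs with its targets, and the seed of miR-141 differs from it by a single base. The best known targets are the transcripts of ZEB1 and ZEB2, transcription factors that silence E-cadherin and other epithelial genes, and the ZEB proteins in turn bind and silence the promoters of both clusters. Sertoli cells are the epithelial cells of the seminiferous tubule, joined to each other by junctions. In the RefSeq annotation of Sscrofa11.1, 1 of the 3 members was matched, MIR429, and its neighbours there are LOC110261078 and TTLL10. miR-200b and miR-141 had no match.

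The cells were immature Sertoli cells, cultured from pig testes of 80 to 90 days of gestation in medium with 10% fetal bovine serum. After 6 h of culture they received 250 µM AA2P (the sesquimagnesium salt hydrate of L-ascorbic acid 2-phosphate, a stable derivative of vitamin C), or no treatment (control). Each group had 3 libraries, and the question was which miRNAs differ with AA2P. The labels name neither the duration of the treatment nor the animals or cultures behind a library, so the p-values here speak only of the variation from library to library, which could be technical.

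Values are TPM, reads scaled so that every library has an equal total. The steps between low values put the depth at 25.8 to 32.2 Mreads (megareads) in the control libraries and 26.9 to 36.0 Mreads in the AA2P libraries. A count of 0 then allows up to 0.0834 to 0.116 TPM (3 reads), for counting error only. Of the 433 entries that reached 1 TPM in 3 or more libraries, all 3 members among them, 24.7% passed limma at an adjusted p of 0.05 (86 higher and 21 lower with AA2P). The median log2 fold change of the tested entries was 0.25 in the deposited scaling. Under 5 other scalings, which brought that median to -0.01 to 0.07, the split was 39 to 55 higher and 36 to 51 lower. Without control replicate 3 the calls fell to 63. The library that stood apart for the family was AA2P replicate 2, the deepest, in which miR-141 was low. Fold changes and ratios of miR-141 are given with and without this library, and its group mean and profile distances only with it.

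Of the 3 members, 2 rose with AA2P and the other, miR-141, did not pass the test. In the deposited scaling miR-200b, the main member, was 1.68-fold higher and miR-429, its partner in the cluster, 2.09-fold higher. There miR-141, of the other cluster, had nearly the same mean in both groups and a wide spread with AA2P. In that scaling miR-21-5p alone held a mean of 520562 TPM in controls and 410890 TPM with AA2P. Under 5 other scalings the log2 fold changes were smaller, at 0.45 to 0.56 for miR-200b and 0.76 to 0.86 for miR-429. Among all tested entries 19.9% passed as higher and 4.85% as lower. The family's median log2 fold change was 0.74, beside 0.25 over all tested entries. With 3 members that median is the value of miR-200b itself, and miR-141 was at -0.18. In bulk RNA a change in the number of cells of a type and a change of RNA per cell cannot be told apart.

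miR-200b stood at 1523.21, 1447.88 and 1517.23 TPM in control replicates 1 to 3 and at 2645.28, 2732.10 and 2179.41 TPM in AA2P replicates 1 to 3. Every AA2P library was above every control library, and AA2P replicate 3 was the lowest of the treated ones. Among all tested entries 49.7% had groups that did not overlap. The group values were 1496 ± 41.9 and 2519 ± 297 TPM (SD, n = 3 per group). On the log2(TPM + 1) scale, on which changes of low entries are understated, the fold change was 0.74 (SE 0.101, 95% interval 0.50 to 0.99; limma, adjusted p = 0.00443).

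miR-429 stood at 103.92, 94.99 and 97.39 TPM in the control libraries and at 230.55, 206.46 and 183.38 TPM in the AA2P libraries. The groups did not overlap, and the lowest AA2P library, replicate 3, was again well above the highest control. Its group values were 98.8 ± 4.62 and 206.8 ± 23.6 TPM (SD, n = 3 per group). The log2 fold change was 1.05 (SE 0.105, 95% interval 0.80 to 1.31; limma, adjusted p = 0.00222). By size of the log2 fold change, miR-429 ranked 33 and miR-200b 61 from the top of the 433 tested entries.

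miR-141 stood at 47.70, 45.28 and 45.40 TPM in the control libraries and at 63.53, 20.54 and 50.89 TPM in the AA2P libraries. AA2P replicates 1 and 3 lay above all controls and AA2P replicate 2 below all of them, so the groups overlapped. The group values were 46.1 ± 1.36 and 45.0 ± 22.1 TPM (SD, n = 3 per group). The log2 fold change was -0.18 with a 95% interval of -1.15 to 0.79 (limma, adjusted p = 0.735), an interval that holds both a fall and a rise as large as that of miR-200b. Without AA2P replicate 2 it was 0.30 (95% interval -0.01 to 0.60; limma, adjusted p = 0.141), close to the median of all entries tested in that fit, 0.24.

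**Figure D1:**
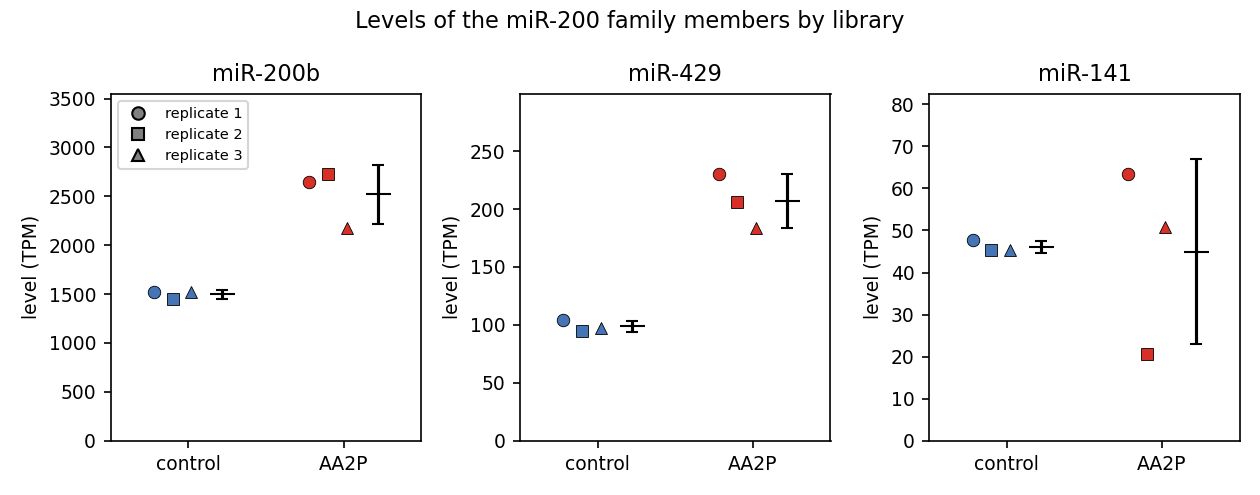
Levels of miR-200b, miR-429 and miR-141 in TPM (vertical axes, from 0) in the 3 control and 3 AA2P libraries; symbols mark the replicate, and the bars at the right of each group give the mean and SD (n = 3). The AA2P libraries lie above all controls for miR-200b and miR-429, while for miR-141 AA2P replicate 2, at 20.54 TPM, lies below all controls and the other AA2P libraries above them.

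The low value of miR-141 in AA2P replicate 2 was larger than counting error. It rested on 739 implied reads, with an exact 95% Poisson interval of 19.1 to 22.1 TPM, beside 48.5 to 53.4 TPM in AA2P replicate 3 and 60.5 to 66.6 TPM in AA2P replicate 1. Against the mean of the other AA2P libraries, miR-141 was lower by a log2 difference of -1.43 in replicate 2. Among 204 known miRNAs whose mean reached 10 TPM no other was that low, and the next, miR-532-3p, differed by -0.53. 4 predicted entries were lower still. In the same library miR-200b and miR-429 differed from the other AA2P libraries by 0.19 and 0.01 on the log2 scale, beside a median of 0.04 over 249 entries. This library also listed the most entries above 0, 900 beside 731 to 822 in the others; the part of depth in the miR-141 value was not tested.

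Counting error was smaller than the spread between libraries for miR-200b and miR-429, and about as large as it for miR-141 in the controls. It came to 0.319 to 0.504% of the value for miR-200b, 1.16 to 1.93% for miR-429 and 2.42 to 3.68% for miR-141. The SD between libraries was 2.80% of the mean for miR-200b, 4.68% for miR-429 and 2.96% for miR-141 in the controls. In the treated group it was 11.8%, 11.4% and 49.1%. Whether the spread differed between the groups was not tested.

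The order of the members was the same in every library, with miR-200b highest and miR-141 lowest. Ranked by mean TPM over the 6 libraries among the 358 known miRNAs, miR-200b was number 45, miR-429 number 118 and miR-141 number 158. These levels carry no length term, and how well each miRNA is captured in a library was not measured. miR-200b moved from rank 50 or 51 in the control libraries to rank 38 to 41 in the AA2P libraries, and miR-429 from 132 or 133 to 107 to 112. miR-141 held rank 156 to 158 in controls and took 152, 193 and 156 in AA2P replicates 1 to 3.

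Neighbours in that order were picked by mean TPM over all 6 libraries. By that choice a member that rises lies below steady neighbours in controls and above them with AA2P. Set against such neighbours, miR-200b lay lower in controls. There its 1496 ± 41.9 TPM was below miR-98 at 1939 ± 199 and miR-340 at 1890 ± 167 TPM. With AA2P its 2519 ± 297 TPM was above miR-340 at 2003 ± 179 TPM, and its spread overlapped that of miR-98 at 2140 ± 202 TPM (SD, n = 3 per group). miR-30e-5p, next but one below, stood under miR-200b in controls (1270 ± 128 TPM) and within its spread with AA2P (2407 ± 387 TPM). miR-429 lay below miR-454 (117 ± 11.5 TPM) and miR-18a (136 ± 6.30 TPM) in controls, and with AA2P it lay with overlapping spreads, at 203 ± 11.1 and 164 ± 25.1 TPM. miR-141 did not differ beyond the spread from its neighbours miR-19a, at 40.3 ± 9.43 and 59.1 ± 6.78 TPM in the control and AA2P groups, and miR-365-5p, at 44.6 ± 4.55 and 44.0 ± 2.08 TPM. Its other neighbours, miR-190a (39.6 ± 3.43 TPM) and miR-424-3p (32.8 ± 3.18 TPM), were lower than miR-141 in controls beyond the spread. With AA2P, at 63.2 ± 4.16 and 54.9 ± 6.45 TPM, their spreads overlapped that of miR-141.

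As a family the members were led by miR-200b. Their sum was 1588 to 1675 TPM in controls and 2414 to 2959 TPM with AA2P, and the groups did not overlap. The means were 1641 ± 46.4 and 2771 ± 309 TPM (SD, n = 3 per group; two-sided exact permutation test, p = 0.1, which is as low as 3 against 3 can go). miR-200b made up 91.2% ± 0.226 of the sum in controls and 90.9% ± 1.27 with AA2P. Since miR-200a and miR-200c are not in it, the sum covers only the 3 members named.

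Ratios between members were then compared within libraries, where the scaling of a library cancels. For each miR-429 read there were 14.7, 15.2 and 15.6 reads of miR-200b in control replicates 1 to 3 and 11.5, 13.2 and 11.9 in AA2P replicates 1 to 3. Each AA2P library thus had more miR-429 for its miR-200b than each control library. The log2 ratio of miR-429 to miR-200b was -3.92 ± 0.0446 in controls and -3.61 ± 0.107 in the treated libraries (SD, n = 3 per group), a difference of 0.32 (two-sided exact permutation test, p = 0.1, the smallest value possible).

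The share of miR-141, the member with the other seed and from the other cluster, was lower in each AA2P library than in each control library. It held 2.85%, 2.85% and 2.73% of the family's TPM in control replicates 1 to 3 and 2.16%, 0.694% and 2.11% in AA2P replicates 1 to 3. Replicates 1 and 3 of AA2P, in which miR-141 itself stood above the controls, were also below all controls in this share. The difference of the group means was -1.16 percentage points (two-sided exact permutation test, p = 0.1, the smallest value possible) and -0.68 points without AA2P replicate 2. As a log2 ratio of miR-200b plus miR-429 to miR-141 the balance was 5.11 ± 0.0352 in controls and 6.07 ± 0.948 in the treated libraries (SD, n = 3 per group), a difference of 0.95, and of 0.41 without AA2P replicate 2. With miR-200a and miR-200c not analysed here, the seed and the cluster cannot be told apart, because miR-141 alone stands for both. The sum, the share and both log2 ratios made 4 comparisons, and the exact permutation p adjusted over them by Benjamini-Hochberg was 0.1 for each. The share and the balance express the same quantity and order the libraries alike, so they are not separate results.

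**Figure D2:**
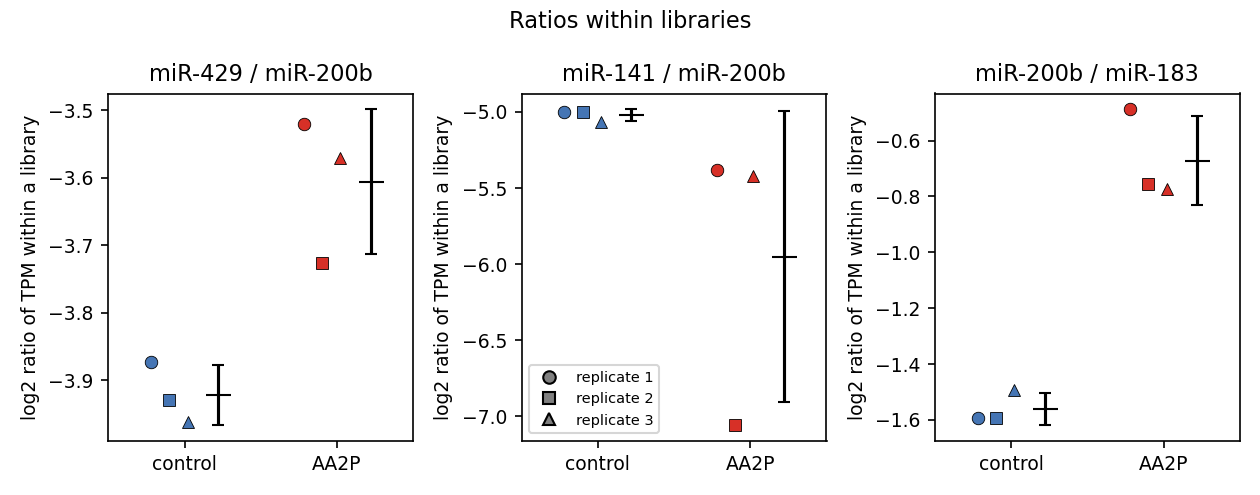
Log2 ratios of TPM within a library (vertical axes) for miR-429 to miR-200b, miR-141 to miR-200b and miR-200b to miR-183, in the 3 control and 3 AA2P libraries; symbols mark the replicate, and the bars give the mean and SD (n = 3). In each panel the groups do not overlap, and for miR-141 to miR-200b AA2P replicate 2, at -7.06, lies far below the other AA2P libraries at -5.38 and -5.42.

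The rises of miR-200b and miR-429 passed the test under each of 5 other scalings of the libraries. These scalings lowered both, to log2 fold changes of 0.45 to 0.56 for miR-200b (limma, adjusted p = 0.00411 to 0.0117) and 0.76 to 0.86 for miR-429 (limma, adjusted p = 0.00192 to 0.00679). The lower values went with the lower median of all entries. Relative to that median miR-200b stood 0.50 higher as deposited and 0.46 to 0.55 higher under the other scalings, and miR-429 stood 0.81 higher and 0.77 to 0.81 higher. miR-141 passed under none of the 5, at -0.47 to -0.37 (limma, adjusted p = 0.498 to 0.595), nor under any of them without AA2P replicate 2, at 0.03 to 0.14 (limma, adjusted p = 0.369 to 0.819). With each library left out in turn the calls of miR-200b and miR-429 held, with log2 fold changes of 0.68 to 0.85 and 0.97 to 1.14.

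**Figure D3:**
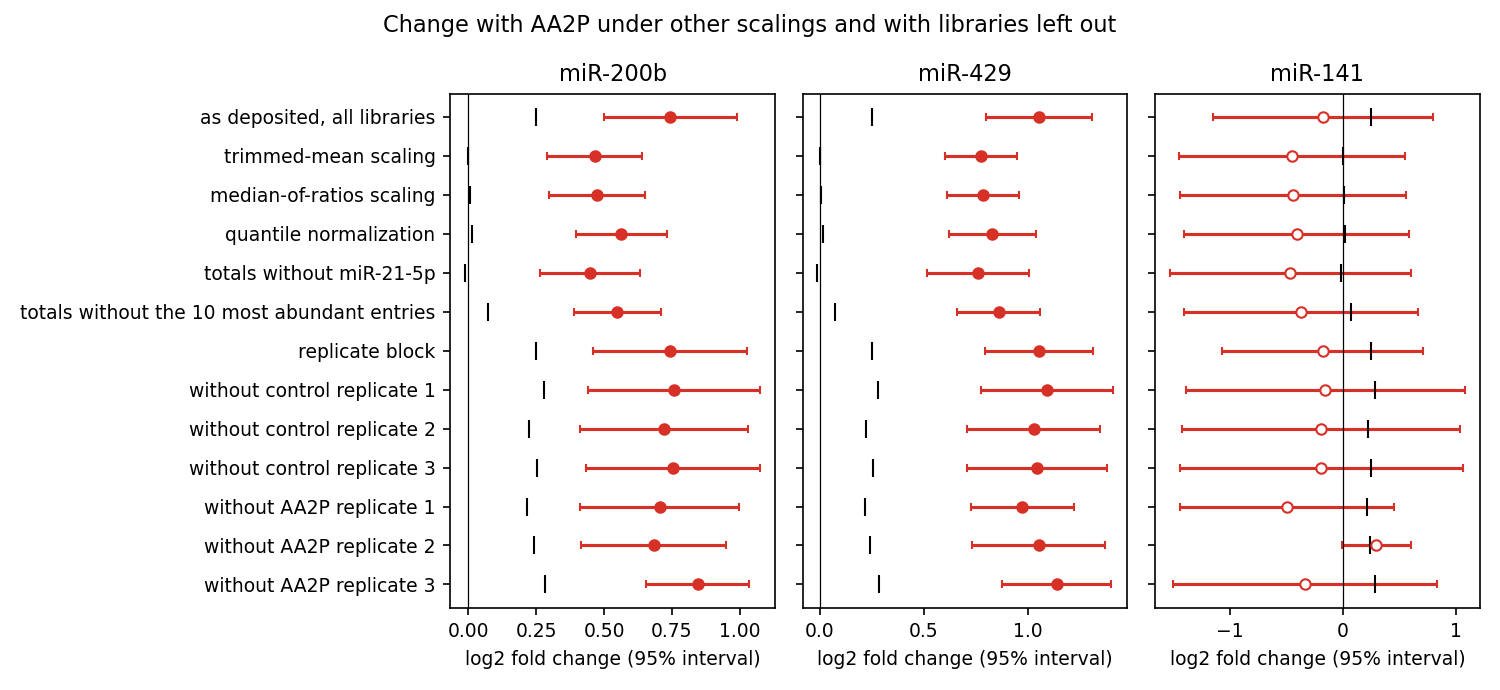
Log2 fold change of each member with AA2P (horizontal axes, with limma's 95% interval) as deposited, under 5 other scalings, with the replicate number as a block, and without each library; filled points have an adjusted p under 0.05 and vertical ticks mark the median of all tested entries. miR-200b and miR-429 lie right of that median with filled points in every row, and miR-141 crosses 0 in every row.

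None of the 3 products of the miR-183, miR-96 and miR-182 cluster, also known from epithelial and sensory cells, passed the test. miR-182, at 6384.53, 7136.47 and 6466.16 TPM in controls and 5681.35, 7502.86 and 5745.16 TPM with AA2P, overlapped between the groups (limma, adjusted p = 0.609). miR-183, at 4413 ± 165 and 4015 ± 515 TPM, and miR-96-5p, at 439 ± 59.0 and 500.1 ± 54.7 TPM (SD, n = 3 per group), had adjusted p-values of 0.335 and 0.319 (limma). Under 4 of 5 other scalings miR-183 passed as lower, under 1 of them (totals without miR-21-5p) miR-182 did, and the sign of miR-96-5p turned in 5. Within libraries, miR-183 outnumbered miR-200b by 3.02, 3.02 and 2.82 to 1 in the control libraries and by 1.40, 1.69 and 1.71 to 1 in the AA2P libraries.

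The test of that difference was made on log2 ratios, chosen after the values were seen. The ratio of miR-200b to miR-183 was higher with AA2P by 0.89, that to miR-182 by 0.83 and that to miR-96-5p by 0.55, and none of these groups overlapped. For miR-429 the differences were 1.20, 1.15 and 0.87, again without overlap. For miR-141 they were -0.04, -0.10 and -0.38, with overlap. Without AA2P replicate 2 these turned sign, to 0.55, 0.52 and 0.20, and for miR-183 and miR-182 the groups then did not overlap (two-sided exact permutation test, p = 0.1, as low as 3 against 2 can go). In that library miR-183, miR-182 and miR-96-5p differed from the other AA2P libraries by 0.31, 0.39 and 0.26 on the log2 scale. Without it their log2 fold changes were -0.25, -0.22 and 0.11, beside 0.30 for miR-141. The turn thus lies partly in the denominators. There were 9 ratios of a member to miR-183, miR-182 or miR-96-5p. By exact permutation, two-sided, the 6 of miR-200b and miR-429 each had p = 0.1, the smallest possible (adjusted over the 9, 0.15), and those of miR-141 had 0.9 to 1.

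Of the other epithelial miRNAs, miR-375 rose from 7.28 ± 0.745 to 10.99 ± 0.412 TPM (SD, n = 3 per group; limma, adjusted p = 0.0197), a call that ended under all 5 other scalings. miR-205, which also represses ZEB1 and ZEB2 and marks stratified epithelia, was at 0.33 TPM or less in every library and was not tested. In all, 1 of the 4 tested members of that list passed, as higher, where 19.9% of all tested entries did, so the count is no result about the list; it had a median log2 fold change of 0.05 beside 0.25 over all tested entries.

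Other miRNAs reported to target ZEB transcripts formed a list of 8, of which 4 were tested. miR-192 and miR-215, relatives that share their seed and for which ZEB2 is a described target, rose with log2 fold changes of 1.25 (SE 0.0969) and 1.26 (SE 0.112; limma, adjusted p = 0.00127 and 0.00162), and both calls held under all 18 alternatives. miR-101, at 1663 ± 68.1 and 1855 ± 355 TPM, and miR-130b-3p, at 20.7 ± 1.73 and 24.2 ± 4.47 TPM (SD, n = 3 per group), did not pass (limma, adjusted p = 0.483 and 0.373). The signs of these last differences turned under 5 and 4 of the 5 other scalings. miR-144, miR-150, miR-153 and miR-205 stayed under 1 TPM in every library. Thus 2 of the 4 tested passed as higher, where 19.9% of all tested entries did, and these 2 share their seed. The median of the 4 tested was 0.73, beside 0.25 over all tested entries.

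All 6 miRNAs listed as promoting the epithelial to mesenchymal transition, the process that the miR-200 family restrains, passed the test, in both directions. miR-21-5p, miR-155-5p, miR-221-3p and miR-222 fell, with log2 fold changes of -0.35, -0.61, -1.10 and -1.43, and miR-9, known to target E-cadherin, and miR-10b rose, with 0.59 and 0.48 (limma, adjusted p = 0.00162 to 0.0313). Over all tested entries 19.9% passed as higher and 4.85% as lower. The median was -0.48, beside 0.25 over all tested entries. miR-10b lost its call under each of the 5 other scalings, miR-9 with totals without miR-21-5p, and miR-155-5p without control replicate 2 or 3. miR-21-5p lost it, among others, without any 1 of the control replicates. Quantile normalization gives miR-21-5p, first in rank, the same value in every library and so does not test it, and under the 4 remaining scalings it fell by 0.54 to 0.64 on the log2 scale. The calls of miR-221-3p and miR-222 held under all 18 alternatives. These are products of the same cluster, so the 6 entries are not all separate. These comparisons share their libraries with that of miR-200b and miR-429.

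**Figure D4:**
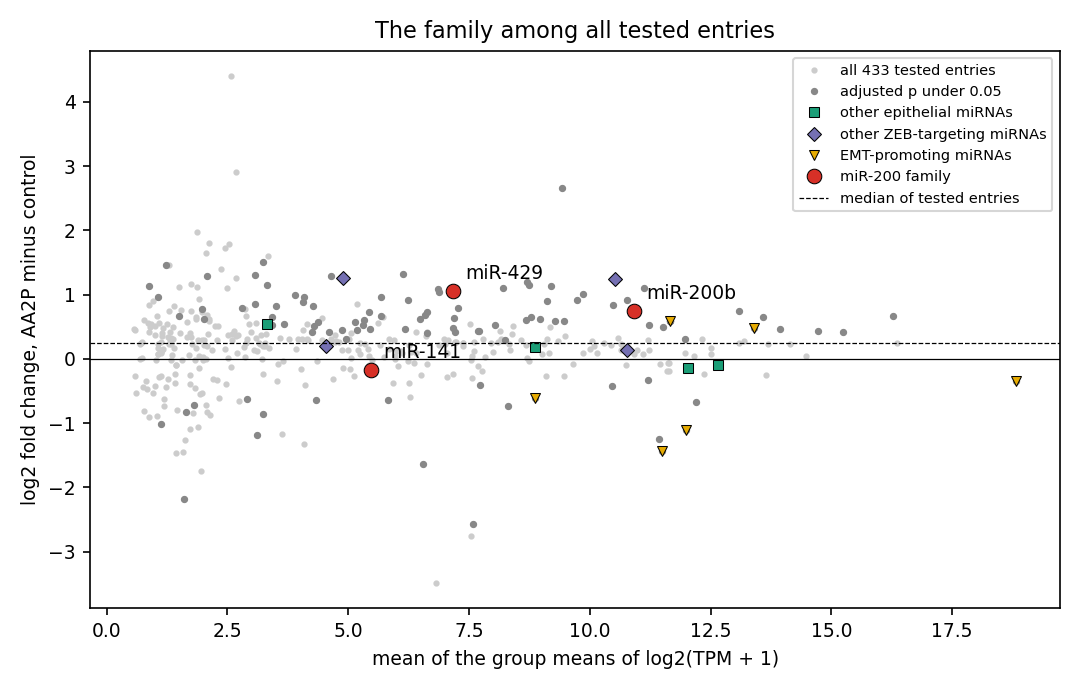
Log2 fold change with AA2P (vertical axis) against the mean of the group means of log2(TPM + 1) (horizontal axis) for the 433 tested entries, with the family and 3 lists marked; darker grey points passed an adjusted p of 0.05 and the dashed line is the median of tested entries, 0.25. miR-429 at 1.05 and miR-200b at 0.74 lie above the dashed line, miR-141 at -0.18 below it.

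The Sertoli cell label could not be checked against Sertoli genes, since the table holds only miRNAs. Markers of other cells were read beside the family. Of 8 mesenchymal entries 2 stayed under 1 TPM throughout, miR-199a-5p at 0.27 TPM or less and miR-214-3p at 0.04 TPM or less. The others were present. miR-143-3p stood at 34.6 ± 10.7 TPM in controls and 30.8 ± 8.22 TPM with AA2P (SD, n = 3 per group). miR-145-5p, miR-199a-3p, miR-199b-3p and miR-199b-5p had group means of 1.28 to 1.98 TPM. The mesenchymal sum, 8473 to 9921 TPM in controls and 11435 to 15009 TPM with AA2P, was nearly all miR-10b, which rose (limma, adjusted p = 0.0313). It was the only 1 of 6 tested entries of that list to pass, where 19.9% of all tested entries passed as higher. That count is no result about the list, and it holds miR-199a-3p and miR-199b-3p, whose values are equal. The 4 muscle entries summed to 134 to 180 TPM in controls and 192 to 278 TPM with AA2P, mostly miR-1, which did not pass (limma, adjusted p = 0.0746), and miR-133b and miR-206 stayed under 1 TPM. The 2 listed germ cell entries summed to 169 to 183 TPM and 213 to 283 TPM, nearly all of it miR-34c, which is also found in somatic cells and rose with a log2 fold change of 0.43 (limma, adjusted p = 0.0464). None of the 5 other scalings kept the calls of miR-10b and miR-34c. The 8 blood and endothelial entries summed to 101 to 114 TPM and 89.3 to 122 TPM, and these overlapped. Nearly all of that sum was miR-126-3p, at 101.45 ± 6.50 and 96.4 ± 12.2 TPM (SD, n = 3 per group), so it says little of the others. Among entries not tested, miR-142-5p stood at 0.34 to 0.56 TPM in controls and 0.72 to 2.08 TPM with AA2P. miR-223 stood at 0 to 0.04 and 0 to 5.40 TPM, and miR-451 at 0.31 to 0.81 and 0.31 to 1.11 TPM. miR-144 and miR-150 stayed under 1 TPM. Of the 3 tested, miR-142-3p passed as higher, where 19.9% of all tested entries did. It stood at 0.43 to 0.59 TPM in controls and at 1.47 to 2.68 TPM with AA2P (limma, adjusted p = 0.0293). It thus met the filter of 1 TPM only through the AA2P libraries, and its call is not used as support. The call was kept under 3 of 5 other scalings. It ended with no filter, with the replicate block and without any 1 of the control replicates. miR-126-3p, with a log2 fold change of -0.08, and miR-486, with -0.53, did not pass (limma, adjusted p = 0.615 and 0.118), and each passed as lower under 3 of 5 other scalings. The part of other cells in the rises of miR-200b and miR-429 was not tested.

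By profile over the 6 libraries, the miRNA nearest to miR-200b was not its partner miR-429. Nearness was the root mean square difference of log2(TPM + 1), centred on each entry's mean, over 201 known miRNAs outside the family whose mean reached 10 TPM. This measure takes in the change between the groups. miR-200b and miR-429, with log2 fold changes of 0.74 and 1.05, stand apart by that alone, and likeness within the groups was not measured. The 5 nearest were miR-30a-5p (0.0744), miR-30c-5p (0.0777), miR-424-3p (0.0883), miR-181a (0.0951) and miR-425-5p (0.104), while miR-429 stood at 0.168 and miR-141 at 0.709. For miR-429, examined after the values were seen, the nearest were miR-32 (0.0551) and miR-99a-5p (0.0671). miR-141 had no profile as near to its own, the closest being miR-532-3p at 0.308. All distances of miR-141 take in its low value in AA2P replicate 2 and were not computed without that library. There miR-532-3p was the next lowest after miR-141 among 204 known miRNAs.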

How the data were processed

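Small RNA of 3 control and 3 AA2P libraries was compared. The authors deposited 1 table of TPM, rounded to 2 decimals, for all libraries; Bowtie is named per the submitters' processing notes, with no version or role. For the genome build, miRBase release and counting rules, nothing was given in the sources used here. Each column has the same sum over all entries. Low values (under 3 TPM) lay within 0.0051 TPM of whole reads in 99.0 to 100% of cases, which gave the depths; the TPM themselves were tested, log-transformed, without a count test. How reads that match more than 1 miRNA were assigned is not given. Whether miR-200b and miR-429, which share their seed, have reads in common was not tested.

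Entries that reached 1 TPM in 3 or more of the 6 libraries were fitted by limma 3.58.1 (R 4.3.3) on log2(TPM + 1) with a mean-variance trend, and two-sided p-values were adjusted by Benjamini-Hochberg over all 433. Sums and ratios were compared by two-sided exact permutation tests. The script was tested on simulated data. The replicate number was not a block in this fit. The planned ratio of miR-141 to miR-200c and the arm ratios had no pair of listed entries and were not run. Named miRNAs are the members, list entries that passed or complete a count, and the 5 profiles nearest to the most abundant member. Outside this rule, chosen after their values were seen, are the neighbours in level of each member, the profiles nearest to miR-429 and miR-141, and the miRNA next lowest in AA2P replicate 2. The members and the 8 lists were chosen with earlier results of these data known.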

Additional observations from a re-analysis of the deposited data

How the results depend on the processing

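The calls of miR-200b and miR-429 held in direction and side of the threshold under all 18 alternatives, with log2 fold changes of 0.45 to 0.85 and 0.76 to 1.14. miR-141 passed under none of these 18 and turned sign in 1, to 0.30 without AA2P replicate 2; leaving out single libraries gave -0.49 to 0.30. Of all tested entries 107 were called, but 57 with no filter, 63 with the replicate block and 63 to 97 with single libraries left out (63 without control replicate 3). With the replicate block miR-200b and miR-429 passed (limma, adjusted p = 0.0195 and 0.0110), and the pairing ended no call of a member. For same-numbered libraries, the correlations of the deviations from their group means were r = 0.29, 0.06 and 0.18, not all over 0.1. Deviations within a group cancel, so the correlations between libraries are tied to each other. Each AA2P library correlated best with the control of its own number, but control replicate 2 correlated better with AA2P replicate 3 (0.11). Whether the number is a pairing is thus not settled, and the main fit does not use it. The summed level was higher by 678 to 825 TPM under other scalings and by 1036 to 1308 TPM with single libraries left out, beside 1130 TPM as deposited. The ratio of miR-429 to miR-200b, without single libraries, differed by 0.27 to 0.38, the balance of clusters by 0.41 to 1.24 and the miR-141 share by -1.41 to -0.68 points. The directions of these 4, of which the balance and the share express the same quantity, held in every alternative run. The exact permutation tests, with smallest p of 0.1 at 3 against 3 and 0.25 for the block, cannot pass 0.05. The lowest value of a member rested on 739 reads. Chosen after the data were seen, the 5 other scalings without AA2P replicate 2 put miR-141 at 0.041 (trimmed mean), 0.035 (median of ratios), 0.043 (quantile), 0.056 (totals without miR-21-5p) and 0.14 (totals without the 10 most abundant entries), and the log2 ratios of miR-141 to miR-182, miR-183 and miR-96-5p turned to 0.52, 0.55 and 0.20; the cause was not tested.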
